A study of Mus musculus with 2 samples.

Results

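The genes described here build and run cilia. They were chosen by name from the array annotation: the families Dnaic, Dnali, Rsph, Tekt, Ift and Bbs, each followed by a digit, together with Foxj1, Rfx2, Rfx3, Spag6, Spag16, Spag17, Ccdc39, Ccdc40, Fam183b and Dynlrb2. Names starting with Dnah and a digit, and Spag6l, were also sought, and no probe carried such a name. This gave 45 genes, read by 61 probes, among 36493 gene names on the array. Of the 45 genes, 21 belong to the motile axoneme, 20 to ciliary transport, 3 are transcription factors and 1 (Dynlrb2) is a dynein light chain shared by several dyneins.

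Both samples held NSPCs, neural stem and progenitor cells, grown out of mouse embryonic stem cells by way of embryoid bodies. They were kept as tertiary neurospheres, at passage 2, and taken on day 18 from the embryoid body stage. One group was the control for overexpression and the other overexpressed the microRNA miR-153, with 1 array of total RNA for each of the 2 groups. The vector, its promoter, the embryonic stem cell line and the number of cultures pooled are not given in the sources used here.

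A cilium is a microtubule rod, the axoneme, that grows from a centriole and is sheathed by plasma membrane. Motile cilia carry dynein motor arms, radial spokes and a central pair of microtubules, whereas the single primary cilium of a dividing neural progenitor has none of these and serves in signalling. Both kinds are built by intraflagellar transport, in which trains of IFT proteins are moved by kinesin towards the tip and by dynein back to the base, and the BBSome (the complex of Bardet-Biedl syndrome proteins) carries membrane proteins along with them. In the brain, tufts of motile cilia mark the ependymal cells that line the ventricles. The cells of the choroid plexus also carry tufts of cilia. Foxj1 switches on the motile genes, and RFX factors, which bind a DNA motif called the X-box, act on genes of both kinds of cilium.

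The microRNA that was overexpressed is shown to identify the treatment, and the promoters of 6 of the genes are shown as examples of the motif search reported below. Mature miR-153 was not measured on these arrays. Its sequence is from RefSeq, with bases 2 to 8, the seed, in capitals:
mmu-miR-153-3p: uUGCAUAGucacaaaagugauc
The promoters run from 250 bases before to 50 bases after the gene start, from RefSeq on GRCm38.p6. Capitals mark matches on either strand to 1 arm of the X-box, for which the searched letters were GTTGCC, the variant GTTACC and the variant GTTGCTA, or to the whole X-box. The whole X-box was searched as GTTNCC followed by 0 to 3 bases and then by the other arm, GGNAAC. Fam183b, Spag6, Ccdc39 and Dynlrb2 are among the genes that differed most, and Bbs7 and Ift57 are transport genes with a whole X-box:
Fam183b promoter, chr11:58801911-58802210, minus strand: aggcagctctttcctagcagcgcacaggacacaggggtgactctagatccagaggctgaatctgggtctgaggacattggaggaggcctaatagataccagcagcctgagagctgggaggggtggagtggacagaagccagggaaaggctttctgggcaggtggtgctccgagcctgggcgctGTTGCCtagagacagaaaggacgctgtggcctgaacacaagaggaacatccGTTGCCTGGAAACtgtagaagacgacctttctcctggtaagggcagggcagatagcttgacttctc
Spag6 (Spag6l in RefSeq) promoter, chr16:16829314-16829613, minus strand: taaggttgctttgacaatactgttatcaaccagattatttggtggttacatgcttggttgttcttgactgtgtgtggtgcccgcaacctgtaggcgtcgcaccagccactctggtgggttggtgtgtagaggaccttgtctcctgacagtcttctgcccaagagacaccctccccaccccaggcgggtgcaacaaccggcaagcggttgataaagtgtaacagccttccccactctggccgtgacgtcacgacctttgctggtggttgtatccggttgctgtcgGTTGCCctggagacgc
Ccdc39 promoter, chr3:33844261-33844560, minus strand: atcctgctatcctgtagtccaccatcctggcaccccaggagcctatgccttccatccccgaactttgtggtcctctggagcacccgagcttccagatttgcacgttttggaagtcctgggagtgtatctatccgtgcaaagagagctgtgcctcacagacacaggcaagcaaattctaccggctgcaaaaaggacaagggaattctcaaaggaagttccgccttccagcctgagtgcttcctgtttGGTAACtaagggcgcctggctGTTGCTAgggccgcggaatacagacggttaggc
Dynlrb2 promoter, chr8:116504765-116505064, plus strand: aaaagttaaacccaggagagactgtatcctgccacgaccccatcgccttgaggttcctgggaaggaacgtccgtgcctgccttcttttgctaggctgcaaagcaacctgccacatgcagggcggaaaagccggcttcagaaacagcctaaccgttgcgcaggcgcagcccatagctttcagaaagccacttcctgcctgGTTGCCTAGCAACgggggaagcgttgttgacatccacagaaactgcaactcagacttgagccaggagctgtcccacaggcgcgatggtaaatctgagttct
Bbs7 promoter, chr3:36613340-36613639, minus strand: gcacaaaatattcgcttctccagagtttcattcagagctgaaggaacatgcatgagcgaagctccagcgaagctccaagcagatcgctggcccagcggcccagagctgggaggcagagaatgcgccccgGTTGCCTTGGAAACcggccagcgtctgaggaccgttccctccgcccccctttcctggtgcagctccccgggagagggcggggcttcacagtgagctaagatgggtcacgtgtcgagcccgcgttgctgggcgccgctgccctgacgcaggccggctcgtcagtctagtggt
Ift57 promoter, chr16:49699044-49699343, plus strand: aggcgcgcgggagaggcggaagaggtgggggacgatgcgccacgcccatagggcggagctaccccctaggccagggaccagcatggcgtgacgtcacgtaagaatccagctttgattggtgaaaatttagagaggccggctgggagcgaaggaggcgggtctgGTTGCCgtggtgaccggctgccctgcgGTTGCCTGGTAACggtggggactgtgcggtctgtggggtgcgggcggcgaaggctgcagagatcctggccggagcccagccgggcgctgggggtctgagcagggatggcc

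A level below is log2 of the processed signal minus log2 of that array's 75th percentile, and a difference is the level on the miR-153 array minus the level on the control array. A gene counted as measured when its probe was well above background, which is a flag of the scanner software. Measured genes that differed at least 2-fold, a difference of 1 on the log2 scale, were counted as higher or lower. This is a fixed rule of size: with 1 array per group there is no test, no p-value and no spread between cultures. In bulk RNA, fewer cells of a type and less RNA per cell cannot be told apart.

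The arrays lay on the same slide. Non-control spots numbered 59305 on each, of which 52.5% passed the background flag in the control and 55.6% with miR-153, and no spot was saturated. The files hold 2 kinds of technical spread. Repeat spots of a probe gave a median SD of 0.07 for the difference (263 probes), and different probes of the same gene gave a pooled SD of 0.46 (3442 genes). All 10 markers of neural progenitors were measured on both arrays. Of these, 3 (30%) were higher, Hes5 at 2.44, Prom1 at 1.74 and Sox1 at 1.15, and none was lower. Of all genes measured on both arrays, 9.21% were higher and 11.1% lower. In 4 of the 10 markers the difference was below 0, and their median was 0.17. Sox2 differed by 0.29 and Nes by -0.95.

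Most genes of the cilium had a difference above 0, and 12 were at least 2-fold higher with miR-153. Of the 45 genes, 37 were measured on both arrays, 2 on the miR-153 array only, none on the control array only and 6 on neither. Those 12 were 32.4% of the 37, where 9.21% of all 20473 genes measured on both arrays passed the same rule. Only Ift140 was at least 2-fold lower (2.70%), against 11.1% of all genes. In 33 of the 37 (89.2%) the difference was above 0, against 43.9% of all genes, and the median difference was 0.76 against -0.11. The range ran from -1.08 for Ift140 to 2.73 for Fam183b. The difference, in either direction, was larger than the SD between probes, 0.46, in 27 of the 37. Over all genes the lower and upper quartiles of the difference were -0.58 and 0.40, so differences of that size were common there too.

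The counts moved with the processing. With the normexp background correction 5 of the 37 were higher and 0 lower, against 5.86% and 7.48% of all genes. With scaling on the spike-in controls 19 were higher and 0 lower, against 14.2% and 7.26%, and the median of all genes moved from -0.11 to 0.16. Among the 13099 genes that matched a RefSeq accession, which leaves out many unnamed transcripts, 11.0% were higher, 9.85% lower and 50.4% above 0.

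**Figure D1:**
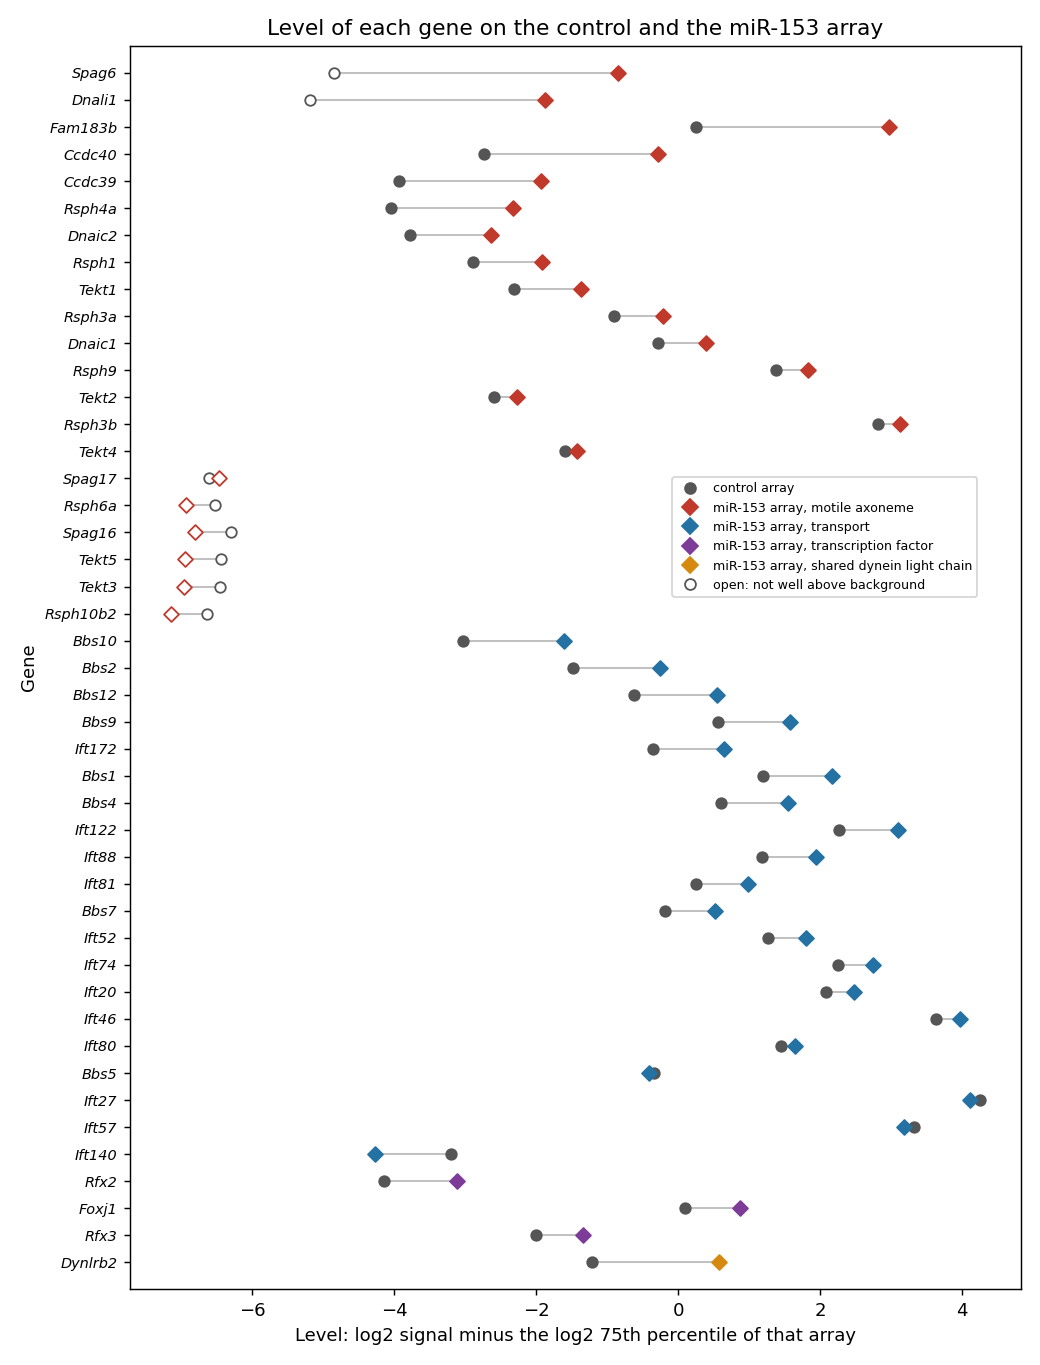
Level of each of the 45 genes (log2 signal minus the log2 75th percentile of that array) on the control array (grey circles) and the miR-153 array (coloured diamonds, by gene group), with open symbols where the probe was not well above background. Lines join the 2 values of a gene, there is 1 array per group, and the miR-153 value lies to the right in 33 of the 37 genes measured on both arrays.

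Among genes of the motile axoneme, the inner arm gene Dnali1 and the central pair gene Spag6 were measured on the miR-153 array only. Spag6 (chr16:16753406-16753465 on mm9) had a level of -4.85 in the control, where it was not well above background, and of -0.85 with miR-153. Dnali1 (chr4:124732591-124732650), which encodes a light intermediate chain of the inner dynein arm, went from -5.19, not well above background, to -1.87. Set against -4.34, the lowest control level of any probe that passed the background flag, Spag6 was at least 11.3-fold higher and Dnali1 at least 5.53-fold higher. Some control probes above that level did not pass the flag, such as that of Scgb1a1 at -3.90. Bounds of this kind, here and below, are therefore approximate. Over all gene names, 5.29% were measured on the miR-153 array only, and 1.01% were so with a bound of 2-fold or more. On the control array only, the share was 1.97%. The name Spag6 here belongs to the gene that RefSeq calls Spag6l. The gene RefSeq calls Spag6 has another name on the array and did not pass the background flag on either array.

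Fam183b, a gene of ciliated cells, had the largest difference of the motile genes measured on both arrays. Its level (chr11:58606357-58606416 on mm9) was 0.25 in the control and 2.98 with miR-153, a difference of 2.73 or 6.64-fold. Ccdc40 and Ccdc39 came next. Their proteins work as a pair, as the ruler that sets the spacing of inner dynein arms along the axoneme. Ccdc40 (chr11:119126290-119126349) had levels of -2.74 and -0.28, a difference of 2.45 or 5.48-fold. Ccdc39 (chr3:33711456-33711515) had levels of -3.93 and -1.93, a difference of 2.0 or 4.0-fold. With the normexp background correction, which shrinks differences of dim probes, Ccdc40 differed by 1.74 and Ccdc39 by 0.90.

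The radial spokes link the outer doublets to the central pair, and their genes differed to unequal extents. Rsph4a, which encodes a protein of the spoke head, was the spoke gene at least 2-fold higher: its levels were -4.04 and -2.32, a difference of 1.72 or 3.30-fold. Under normexp that difference was 0.62. Rsph1, also of the spoke head, fell just short of 2-fold with levels of -2.88 and -1.91, a difference of 0.97. Rsph9, the third head protein, was far from it, at 1.39 and 1.83, a difference of 0.45. Rsph3a and Rsph3b encode near-identical stalk proteins, so their probes may share transcripts and their values are uncertain. They differed by 0.69 and 0.31, and another measured probe of Rsph3a gave -0.42. Rsph6a and Rsph10b2 did not pass the background flag on either array.

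Outer dynein arms were represented by their intermediate chains, Dnaic1 and Dnaic2. Dnaic2 had levels of -3.78 and -2.63, a difference of 1.14 or 2.21-fold, and of 0.26 under normexp. Dnaic1 had levels of -0.28 and 0.39, a difference of 0.67. Both differences were above 0, and Dnaic2 alone passed 2-fold. The tektins are filament proteins inside the doublet microtubules. Tekt1 had levels of -2.31 and -1.37, a difference of 0.94, and its other measured probe gave 0.87. Tekt2 differed by 0.32, and by -0.02 under normexp, and Tekt4 by 0.16. Tekt3, Tekt5 and the central pair genes Spag16 and Spag17 did not pass the background flag on either array.

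In all, 13 motile genes were measured on both arrays. The difference was above 0 in all 13, 5 were at least 2-fold higher and none was lower. Their median was 0.94, or 1.92-fold, within a range of 0.16 to 2.73. Among the 14357 genes within the range of levels of these 13, 11.6% were higher and the median was -0.02. The 6 motile genes measured on neither array had signals of 3.86 to 6.21 intensity units, where only a bound is known.

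**Figure D2:**
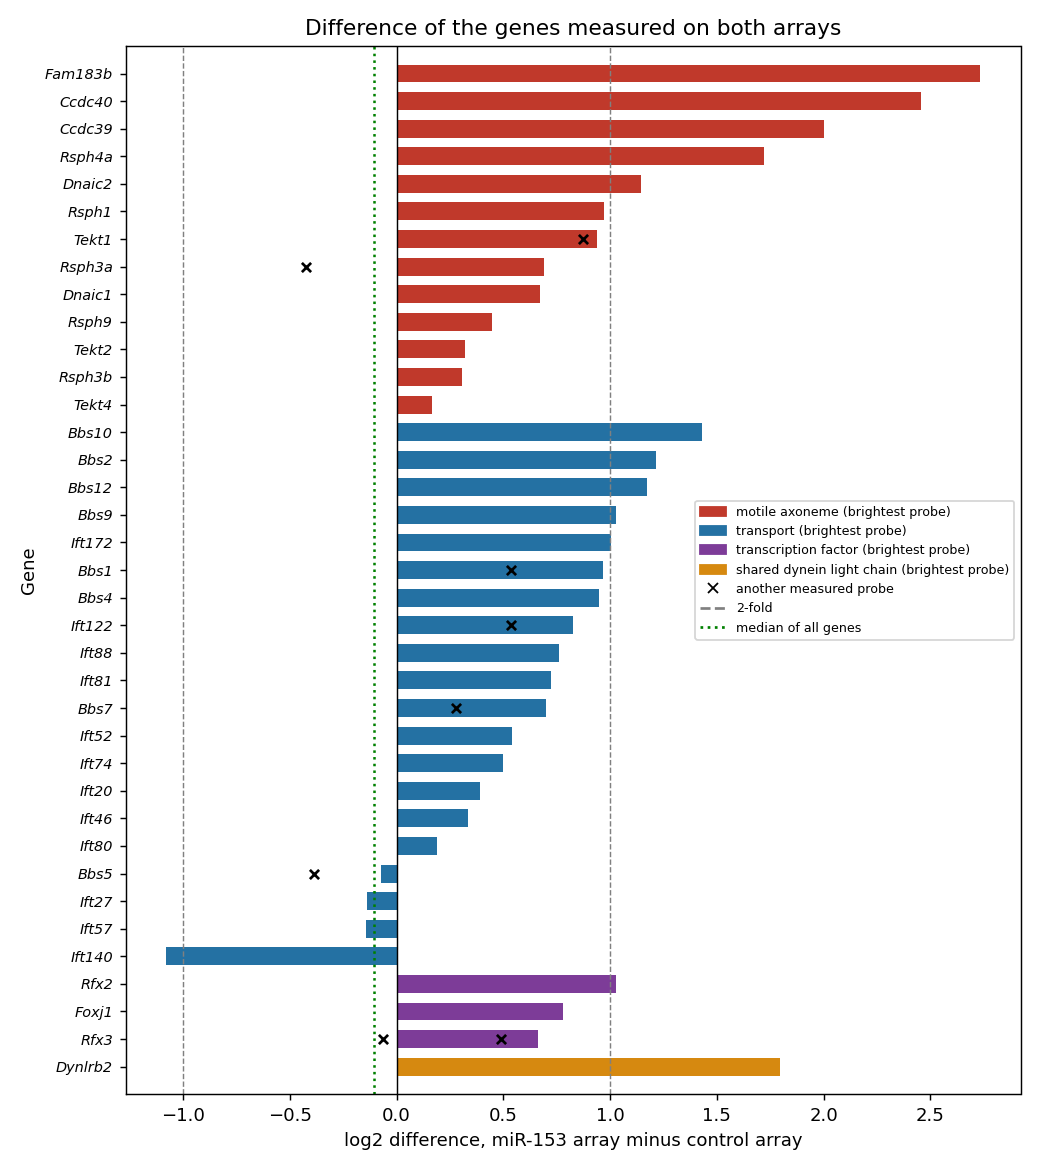
Difference (log2, miR-153 array minus control array) of the 37 genes measured on both arrays, by the brightest probe of each gene (bars, coloured by gene group) and by other measured probes (crosses), with dashed lines at 2-fold and a dotted line at the median of all genes, -0.11. Bars pass the upper dashed line in 12 genes and the lower one in Ift140 only, and crosses lie on the other side of 0 from the bar in Rsph3a and Rfx3.

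Transport genes were all measured on both arrays, and the Bardet-Biedl genes accounted for 4 of the 5 that were at least 2-fold higher. Bbs10 and Bbs12 encode chaperonin-like proteins that help to assemble the BBSome. Bbs10 (chr10:110738490-110738549 on mm9) had levels of -3.04 and -1.61, a difference of 1.43 or 2.70-fold. Its probe was dim in the control, at 53.0 intensity units, and under normexp the difference was 0.69. Bbs12 (chr3:37220248-37220307) had levels of -0.62 and 0.55, a difference of 1.17 or 2.25-fold. Of the BBSome subunits, Bbs2 had levels of -1.47 and -0.26, a difference of 1.22 or 2.32-fold. Bbs9, another subunit, had levels of 0.56 and 1.58, a difference of 1.03 or 2.04-fold. Bbs1 and Bbs4 lay just under 2-fold, with differences of 0.97 and 0.95, and another probe of Bbs1 gave 0.54. Bbs7 differed by 0.70, with 0.28 at another probe. Bbs5 was the exception among the subunits, with levels of -0.34 and -0.41, and -0.38 for the difference at another probe. The median over the 8 Bardet-Biedl genes was 1.0.

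The 12 IFT genes had a smaller median, 0.44, with 1 gene higher and 1 lower. Ift172, a subunit of the IFT-B complex that drives transport to the tip, had levels of -0.35 and 0.65, a difference of 1.0 or 2.0-fold, which is at the threshold. Under normexp Ift172 differed by 0.90. Ift140, a subunit of the IFT-A complex that serves the return to the base, had levels of -3.19 and -4.27, a difference of -1.08, or 2.11-fold lower. Its signal was close to background on both arrays. Under normexp the difference was -0.69. Ift122, the other IFT-A gene, went the opposite way: its levels were 2.27 and 3.1, a difference of 0.83, with 0.53 at another probe. Ift88, an IFT-B subunit needed for cilia to form, had levels of 1.18 and 1.95, a difference of 0.76. Ift81, Ift52, Ift74, Ift20, Ift46 and Ift80 differed by 0.19 to 0.72. Ift27 and Ift57, both at high levels, each differed by -0.14. With scaling on the spike-in controls each of those became 0.12, so their sign is not settled.

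Over the 20 transport genes, the difference was above 0 in 16 and the median was 0.71, or 1.64-fold. Among the 17409 genes within the range of levels of these 20, 10.6% were higher and the median was -0.04. The genes nearest to the 2-fold line were Ift172 at 1.0, Rfx2 at 1.03 and Bbs9 at 1.03 inside it, and Rsph1 at 0.97, Bbs1 at 0.97 and Bbs4 at 0.95 outside it.

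The transcription factors were all measured on both arrays, and each had a difference above 0 at its brightest probe. Rfx2 alone passed 2-fold. Foxj1, the regulator of the motile programme (chr11:116192214-116192273 on mm9), had levels of 0.09 and 0.87, a difference of 0.78 or 1.71-fold. Rfx2 had levels of -4.15 and -3.12, a difference of 1.03 or 2.04-fold, from a probe near background that gave 0.25 under normexp. Rfx3 had levels of -2.0 and -1.34, a difference of 0.66, and its other measured probes gave 0.49 and -0.06. Dynlrb2, a light chain carried by the dynein of retrograde transport and by other dyneins, had levels of -1.22 and 0.58, a difference of 1.79 or 3.47-fold.

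**Figure D3:**
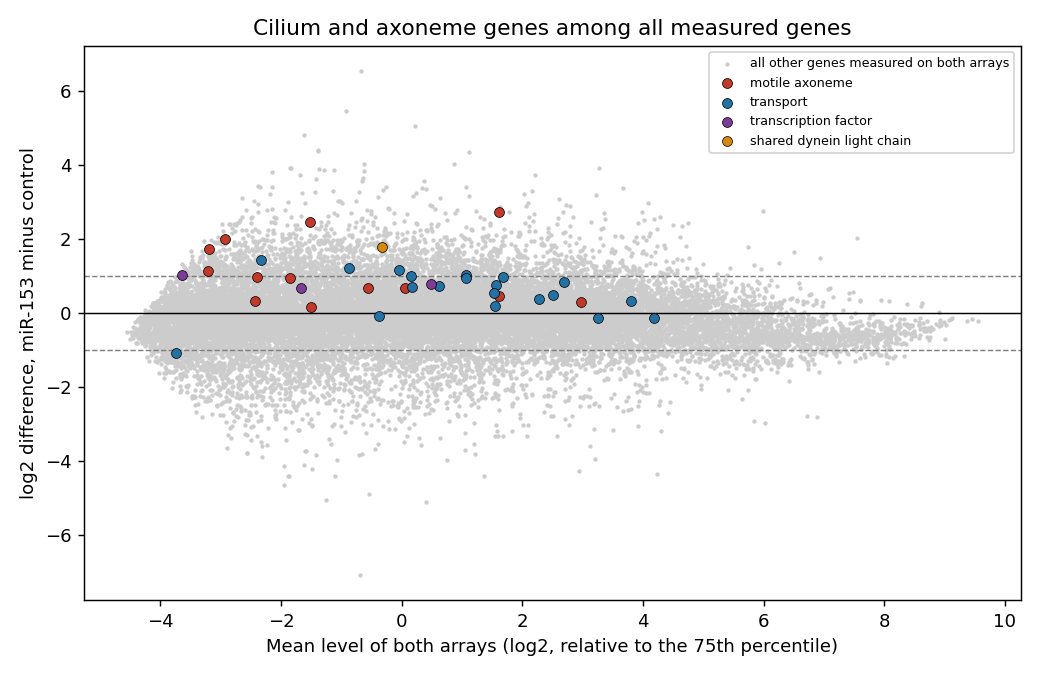
Difference (log2, miR-153 array minus control array) against the mean level of both arrays for all 20473 genes measured on both, in grey, with the 37 cilium genes in colour by gene group and dashed lines at 2-fold. Coloured points lie above 0 in 33 of 37, and motile genes sit mostly at lower levels than transport genes.

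Motile and transport genes were compared with each other. The median of the motile genes exceeded that of the transport genes by 0.23. Of the 13 motile genes, 7 were above the transport median and 4 were above the highest transport gene, Bbs10. The groups overlapped over the rest of their range. They also differed in brightness: 10 of 13 motile genes, and 7 of 20 transport genes, were below the median level of all genes. With the normexp correction the motile median was 0.50, and 0.15 below that of transport. Among bright probes only, it was 0.45 against 0.54. The direction between the groups is therefore not settled by these arrays, whereas each group's median stayed above that of all genes in every scaling tried.

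**Figure D4:**
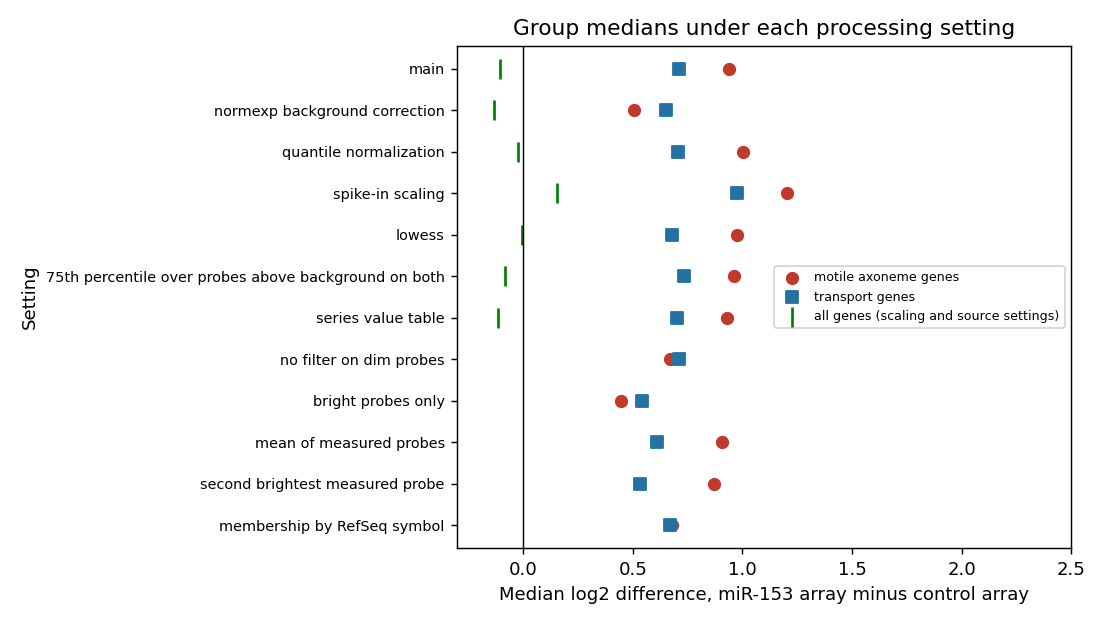
Median difference (log2, miR-153 array minus control array) of the motile axoneme genes (circles), the transport genes (squares) and, where computed, all genes (ticks) under each processing setting. Both group medians stay above 0 in each setting, and the circle lies left of the square with normexp, without the filter on dim probes and among bright probes only.

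Promoters were searched for the X-box because RFX factors act on cilium genes. RefSeq had a promoter for 38 of the 45 genes. At least 1 arm of the X-box was found in 29 of the 38 (76.3%), against 23.7% of 27025 genes with promoters of the same length. The share was 77.8% among motile genes (14 of 18) and 70.6% among transport genes (12 of 17). GTTGCC was in 50.0% of the cilium genes against 14.1% of all genes, GTTACC in 26.3% against 8.16%, and GTTGCTA in 23.7% against 4.28%. A whole X-box, as searched, was in 3 of the 38 (7.89%), against 0.936% of all genes. Those 3 were Fam183b, 16 to 4 bases before the start, Bbs7, 121 to 108 bases before it, and Ift57, 60 to 48 bases before it, as printed above. An arm is part of a whole X-box, so these counts overlap. In Dynlrb2 and Dnaic2 the arms GTTGCC and GTTGCTA lay directly side by side on opposite strands. The pattern searched for a whole X-box does not cover such a pair, so these promoters counted for arms only. The forkhead motif TGTTTAC was in 1 promoter (2.63%), that of Tekt3, against 4.05% of all genes, and TGTTTGT was in none, against 7.60%. Both strands were searched for each motif, and a match is a description of the sequence only.

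The arms were spread over genes that differed much and genes that did not. Among measured genes with a promoter, the median difference was 0.70 in the 23 with an arm and 0.82 in the 8 without. Fam183b and Ift57 both carry the whole X-box as searched, and their differences were 2.73 and -0.14.

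Other genes of the pathway were read from lists chosen by function, with earlier results of these data known. Of 49 further genes of motile cilia, 32 were measured on both arrays, 6 on the miR-153 array only and 11 on neither. Over all gene names, 5.29% were measured on the miR-153 array only. Of the 32, 16 (50.0%) were at least 2-fold higher and none was lower, against 9.21% and 11.1% of all genes. Their median was 0.96. Meig1 differed by 2.59, Efcab1 by 2.4, Spef2, which encodes a central pair protein, by 2.31, and Drc1, a subunit of the regulatory complex between doublets, by 2.25. The kinesin genes Kif6 and Kif9 were measured with miR-153 only and were at least 6.27-fold and 3.51-fold higher there. Under normexp 10 of the 32 were higher, against 5.86% of all genes, and the median was 0.59. In 9 of the 32 the difference was below 0, among them Hydin, a central pair gene, at -0.53.

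The dynein heavy chains, the motors of the axoneme, are named Dnahc in the array annotation and so lay outside the naming rule. Of 12 such genes, 7 were measured on both arrays, 2 on the miR-153 array only and 3 on neither. Measurement on the miR-153 array only held for 5.29% of all gene names. Dnah2, an inner arm chain, had levels of -2.06 and 0.31, a difference of 2.37 or 5.17-fold. Dnah7b, also of the inner arm, differed by 1.02. Dnah5, a chain of the outer arm, was measured on the miR-153 array only and was at least 2.09-fold higher. Dnah11, also of the outer arm, was measured on that array only too, but its levels were -4.27 and -4.43, so no difference is shown. Dnah6, Dnah17, Dnah7a, Dnah9 and Dnah8 differed by 0.39, 0.00, -0.11, -0.31 and -0.80. The heavy chains as a set were thus mixed in direction. With these and 4 other genes of older array names counted in, there were 61 genes, the motile median was 0.68 over 20 genes, and the gap between motile and transport medians was 0.01.

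Genes for docking and assembling dynein arms were mixed: 2 of 11 were higher (Ccdc151 at 1.54 and Ccdc103 at 1.02), 1 was lower (Dnaaf2 at -1.47), and the median was 0.41. Thus 18.2% were higher and 9.09% lower, against 9.21% and 11.1% of all genes. Under normexp 1 of the 11 was higher, against 5.86% of all genes, and with spike-in scaling 5 were, against 14.2%. Of 29 other transport genes, 2 were higher (Ttc30b at 1.22 and Ttc30a2 at 1.11), none was lower, and the median was 0.34. That is 6.90% higher, beside 9.21% of all genes. The count was 0 under normexp, beside 5.86% of all genes, and 5 with spike-in scaling, beside 14.2%. At the transition zone and membrane of the primary cilium, none of 33 genes was higher, against 9.21% of all genes. Cep97 differed by -1.37, and the median was 0.24. With spike-in scaling, 5 of these 33 were higher, against 14.2% of all genes under that scaling.

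The list for the multiciliated cell programme also held RFX factors, such as Rfx4, and genes of centriole duplication, such as Sass6. Its median was -0.38 over 15 measured genes. None was higher and 4 (26.7%) were lower, against 9.21% and 11.1% of all genes. With quantile or lowess scaling 1 was higher, against 2050 and 2043 of all 20473 genes. The 4 lower genes were Plk4 at -2.36, Stil at -2.31 and Cep152 at -1.47, which act in centriole duplication in dividing cells too, and Myb at -1.10. Mcidas, a master regulator of multiciliated cells, had levels of 4.79 and 5.50, a difference of 0.71. These levels were far above those of Foxj1, and whether the probe reads Mcidas alone was not tested. Ccno differed by -0.65 and Deup1 by -0.30. Gmnc, another regulator, did not pass the background flag on either array.

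**Figure D5:**
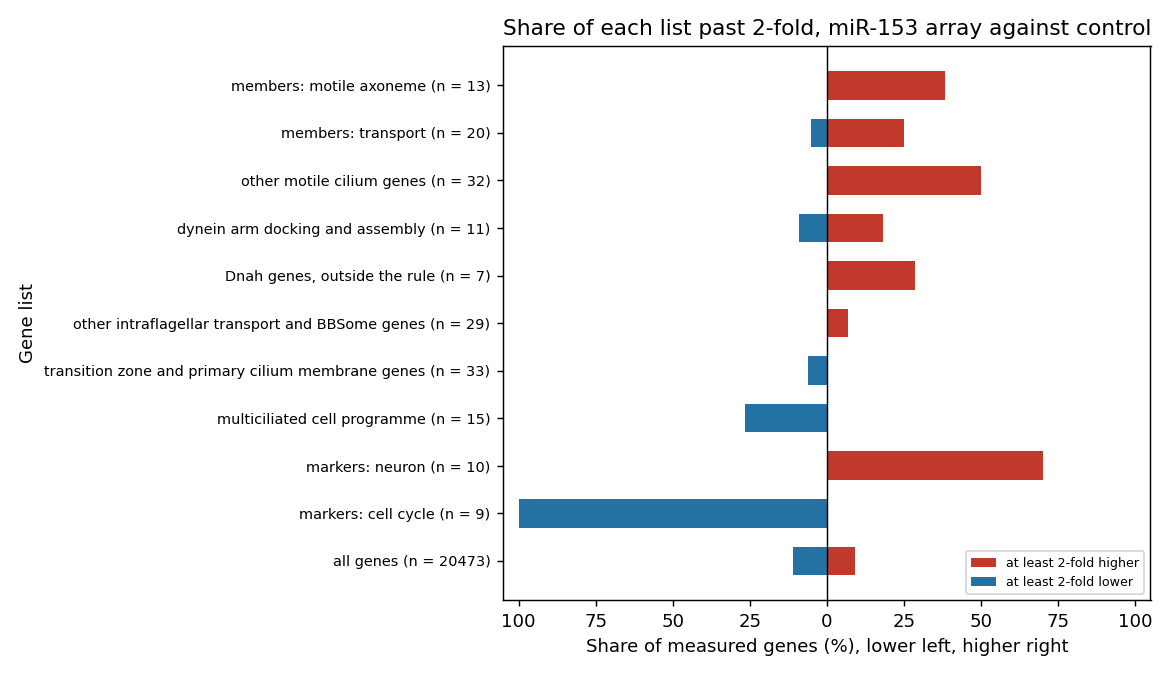
Share (%) of the genes of each list measured on both arrays that were at least 2-fold higher (to the right) or lower (to the left) on the miR-153 array, with the number of genes beside each name. Among the lists drawn, neuron markers (70%) and other motile cilium genes (50.0%) have the longest bars to the right and cell cycle markers the longest to the left, and all genes show 9.21% and 11.1%.

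Some markers of other cell types also differed between the arrays, and their part in the result was not tested. Of 7 ependymal markers measured on both arrays, 4 (57.1%) were higher and none was lower, against 9.21% and 11.1% of all genes. The 4 were Enkur at 1.85, Tppp3 at 1.47, S100b at 1.44 and Mia at 1.06. Cd24a differed by 0.32, Pifo by -0.05 and Hydin by -0.53, and Ak7, Tmem212 and Ccdc153 did not pass the background flag on either array. Under normexp 2 of the 7 were higher, against 5.86% of all genes. The list holds genes that are also in the list of motile genes. Its summed level, on the linear scale and relative to the 75th percentile, was 24.4 in the control and 35.1 with miR-153. Cd24a, which other cell types also express, made up 20.6 and 25.6 of these sums, and the rest of the list summed to 3.84 and 9.44. Choroid plexus markers had 3 of 6 genes (50.0%) higher, Enpp2 at 2.71, Folr1 at 2.34 and Aqp1 at 1.33. Their summed level was 37.7 and 70.5, of which Otx2 made up 32.3 and 39.8. The rest of that list summed to 5.44 and 30.7, and Enpp2, with levels of 2.00 and 4.71, was the brightest gene of this rest. Under normexp 2 of the 6 were higher, against 5.86% of all genes. Ttr, the abundant product of the choroid plexus, was measured with miR-153 only and was at least 1.97-fold higher there. Kcnj13 was measured in the control only and was at least 4.72-fold lower with miR-153.

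Neuron markers were higher in 7 of 10 genes (70%, against 9.21% of all genes), with a median of 1.58 and summed levels of 61.4 and 197. Cell cycle genes were lower in all 9 that were measured on both arrays, against 11.1% of all genes. Their median was -2.39 and their summed levels were 165 and 30.6. The cilium genes thus differed between samples that also differed in markers of division and of neurons.

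Axoneme genes are shared with the sperm tail, so spermatid markers were read as well. Of 16, 13 did not pass the background flag on either array, and of the 3 that were measured on both, Prm2 was lower and none was higher. Summed levels were 0.617 and 0.433. Of 4 Y-linked multicopy genes transcribed in spermatids, 3 were measured with miR-153 only, as were 5.29% of all gene names. By the approximate bound, Sly was at least 11.6-fold, Orly at least 20.5-fold and Ssty1 at least 1.37-fold higher there. Ssty1 had a level of -3.88 with miR-153, close to control levels that did not pass the flag, so its difference is uncertain. Ssty2 did not pass the background flag on either array. Of 5 airway markers, 2 were measured on both arrays, Foxa2, which was higher at 1.44, and Foxa1, at 0.45. Of all genes, 9.21% were higher. Scgb1a1, Scgb3a2 and Bpifa1 did not pass the background flag on either array. Foxa2 was counted in the airway list only, and its cell of origin was not tested. Of 5 node or notochord markers, 3 were measured on both arrays and none passed 2-fold, against 9.21% higher and 11.1% lower of all genes.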

How the data were processed

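Total RNA from 1 control and 1 miR-153-overexpressing sample was labelled with Cy3 and hybridised to 1-colour Agilent arrays, per the labels' protocols. Intensity values were those the authors deposited, read from the scans by Agilent Feature Extraction (version 10.7.3.1 in the submitters' processing notes). Background had been subtracted from the processed signal, per the file headers. The deposited series table holds the same values divided by a constant for each array (381 and 485), with medians of 0.0662 and 0.0614, so it is linear and uncentred, and it was used only as an alternative.

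Spots flagged as outliers (229) and controls were left out, repeat spots were averaged, and 55674 probes remained. Levels are log2 of the signal minus that of the 75th percentile (435 and 549 intensity units). The brightest probe over both arrays stood for a gene. Accessions of 26296 probes (47.2%) matched a RefSeq table of GRCm38.p6, used for names only. Probe positions are on mm9, counted from 1, as the file headers give them, and whether a probe lies in an exon was not analysed here.

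The cilium genes and all lists were chosen with earlier results of these data known. Named genes are those at least 2-fold apart, measured on 1 array only with a bound over 1, transcription factors, and those nearest 2-fold. Further genes are summarised, and 1 gene of the transition zone list is not reported here. Bounds use the higher of the gene's own level and the lowest level that passed the background flag (-4.34 control, -4.86 miR-153). Some probes above these levels did not pass the flag, so the bounds are approximate.

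The number of arrays limits precision. Alternatives were normexp (limma 3.58.1 in R 4.3.3, offset 50), quantile, spike-in and lowess scaling, another percentile, the series table, probe filters, other probes and membership. The scripts, in Python 3.11.15, were tested on simulated data.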

Additional observations from a re-analysis of the deposited data

How the results depend on the processing

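With normexp the motile median was 0.50, its gap to transport -0.15, 5 genes were higher (2 motile, 2 transport) and 0 lower; all genes gave 5.86% higher and 7.48% lower. Fam183b, Ccdc40, Dynlrb2, Bbs12 and Bbs9 were the 5. Spike-in scaling, which moved the all-gene median by 0.26, gave medians of 1.20 and 0.97, 19 genes higher (9 transport), 0 lower, and 14.2% of all genes higher. Quantile and lowess scaling gave 0 lower, and lowess 3 transport genes higher. Without the filter on dim probes the motile median was 0.67 and the gap -0.043. Bright probes only gave 0.45 for motile, 0.54 for transport, a gap of -0.094, and 2 genes higher (1 motile, 1 transport), with 0 lower, from fewer genes. The mean of probes gave 0.61 for transport. The second probe gave 0.53 for transport and a gap of 0.34. Membership by RefSeq symbol, added after seeing the data, gave 0.68, a gap of 0.0079 and 4 genes on the miR-153 array only. Otherwise the causes were not tested. The direction turned for Tekt2 with normexp (-0.015), for Bbs5 (0.19), Ift27 (0.12) and Ift57 (0.12) with spike-ins, for Ift27 with lowess (0.037), and for Rfx3 (-0.063) and Rsph3a (-0.42) at the second probe. Among markers, the node median turned with normexp (-0.044), and the spermatid median with spike-ins (0.070) and lowess (0.19). Signal near background limits the dim motile genes. No paired analysis was possible because each group has 1 array.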
